A study of Homo sapiens with 8 samples.

Results

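The genes described here are STC1, STC2, UBE2QL1, TMEM45A, POU3F3, SLITRK6 and ADAMTS20, 7 of the 43682 gene symbols counted in UM-RC-2 cells. The first gene and the last 5 were chosen because their counts were much lower with VHL in both replicate pairs, and STC2 was added as the paralogue of STC1. UM-RC-2 is an established line of clear cell renal cell carcinoma whose own VHL gene carries a p.Arg82Pro change per the labels. The 4 RNA libraries were 2 from cells stably carrying a construct named VEC and 2 from cells stably carrying VHL, all made by lentiviral infection and selected in 10 µg/ml blasticidin, so the VEC cells share the virus, the selection and the mutant endogenous gene. The labels do not say whether the cells were clones or pools, or whether the replicates were separate cultures, and p-values then measure only the spread between these libraries. The VHL to VEC contrast chose 6 of the 7 genes and is given for them as a description with no test. STC2 was tested.

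VHL is the substrate receptor of a ubiquitin ligase that marks the alpha subunits of hypoxia-inducible factors (HIF) for destruction when oxygen is present. Cells without working VHL, as in most clear cell renal carcinomas, keep HIF alpha and its target genes on in normal oxygen. STC1 and STC2 encode stanniocalcins, secreted glycoprotein hormones first known for calcium and phosphate control, and both are known to be induced in low oxygen. TMEM45A encodes a multipass membrane protein whose transcript is also known to be induced in low oxygen.

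Reference sequence upstream of the genes is shown for 5 members, to set side by side those with and without the core letters of the HIF binding site. Sequences were taken from RefSeq (GRCh38.p14), where 6 of the 7 members were matched. The 250 bases before the annotated start are written 5′ to 3′ on the strand of the gene, so the last base lies next to the start. The letters ACGTG or GCGTG, searched on both strands, are the HIF core and stand in capitals in the first pair of sequences.
STC2 (chr5:173328415-173328664, minus strand): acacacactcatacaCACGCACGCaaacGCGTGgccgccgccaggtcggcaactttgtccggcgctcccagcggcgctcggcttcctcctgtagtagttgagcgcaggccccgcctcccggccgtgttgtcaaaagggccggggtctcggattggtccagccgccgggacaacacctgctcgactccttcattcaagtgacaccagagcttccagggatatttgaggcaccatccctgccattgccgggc
SLITRK6 (chr13:85799420-85799669, minus strand): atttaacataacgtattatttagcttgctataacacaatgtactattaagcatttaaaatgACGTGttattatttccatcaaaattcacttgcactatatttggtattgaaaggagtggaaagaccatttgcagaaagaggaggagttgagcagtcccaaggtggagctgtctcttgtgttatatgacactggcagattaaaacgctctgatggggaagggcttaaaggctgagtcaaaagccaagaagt

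STC2 held GCGTG in 3 places, at 222, 231 and 235 bases upstream of the start, and SLITRK6 held ACGTG in 1 place at 189 bases. One or the other of these core motifs was present in 2 of the 6 members, against 43.2% of 35116 windows of the same length. A window can hold such 5-letter words anywhere, and the words were not tested as binding sites. The next 3 members held neither word, and the word CCAAT, the core of the CCAAT box searched on both strands, stands in capitals in them (as ATTGG where it lies on the other strand).
TMEM45A (chr3:100492369-100492618, plus strand): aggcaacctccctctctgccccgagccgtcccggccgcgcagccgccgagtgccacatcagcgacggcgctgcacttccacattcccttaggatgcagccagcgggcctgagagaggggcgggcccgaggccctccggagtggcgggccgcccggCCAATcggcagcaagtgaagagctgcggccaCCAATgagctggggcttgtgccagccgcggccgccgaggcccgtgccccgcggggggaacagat
POU3F3 (chr2:104853865-104854114, plus strand): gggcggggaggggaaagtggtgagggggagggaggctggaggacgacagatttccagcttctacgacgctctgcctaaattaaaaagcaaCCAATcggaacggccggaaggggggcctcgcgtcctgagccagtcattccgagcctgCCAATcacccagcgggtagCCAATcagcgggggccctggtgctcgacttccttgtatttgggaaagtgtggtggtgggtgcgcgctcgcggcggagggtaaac
ADAMTS20 (chr12:43552204-43552453, minus strand): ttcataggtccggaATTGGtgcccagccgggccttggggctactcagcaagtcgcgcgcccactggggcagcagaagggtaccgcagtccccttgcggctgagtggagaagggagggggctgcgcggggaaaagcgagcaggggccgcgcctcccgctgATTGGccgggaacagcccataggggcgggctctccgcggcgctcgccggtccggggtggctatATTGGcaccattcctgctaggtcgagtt

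CCAAT was found 2 times upstream of TMEM45A, 3 times upstream of POU3F3 and 3 times upstream of ADAMTS20. With STC2, which held it 1 time at 100 bases, 4 of the 6 members had the word, against 32% of all windows. The UBE2QL1 window held none of these words and was rich in G and C, at 85.6%. The SLITRK6 window was the poorest of the 6 in G and C, at 37.6%, with 3 CpG dinucleotides against 18 to 43 in the others. The members thus shared no single word among those searched, and no H3K27ac value could be placed on these windows because the deposited regions carry no positions.

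The libraries differed more by replicate number than by group. Total counts were 21306867 (VEC) and 16230291 (VHL) in replicate 1, and 50027348 and 46609709 in replicate 2. The labels name total RNA for both replicate 1 libraries and polyA RNA for both replicate 2 libraries. The share of counts on pseudogenes was 1.37% (VEC) and 2.07% (VHL) for replicate 1, and 31.3% and 24.9% for replicate 2. VHL itself, the check of the labels, rose within each pair, with 858 (VEC) and 2726 (VHL) counts for replicate 1 and 4053 and 6175 for replicate 2 (edgeR adjusted p = 4.63e-07 with the replicate block, 0.999991 without it). Of the 11 renal epithelial markers, PAX8, VIM, KRT8, KRT18, CDH16, LRP2, CUBN, PAX2 and CA9 had counts in every library, while EPCAM had at most 2 counts and NAPSA at most 9. Of 10 markers of immune, endothelial, blood, liver and muscle cells, CD3E, PECAM1, VWF and CDH5 were at 0 in all 4 libraries, and the summed level was 17.7 and 11.9 CPM (counts per 1000000 in the library) in VEC and VHL of replicate 1 and 58.3 and 45.6 CPM in replicate 2. These sums were mostly CD68 and, in replicate 2, DES.

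Values are given as counts and as CPM scaled by TMM, a factor that corrects for the makeup of each library. A fold is the VEC CPM over the VHL CPM of the same replicate number, with a 95% exact interval that covers counting error only. All 7 members passed the filter on low counts. For each of the 7, both VHL libraries lay below both VEC libraries in CPM, as did 3.39% of the 24417 genes tested. For the 6 members chosen on this contrast that separation follows from the choice.

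**Figure D1:**
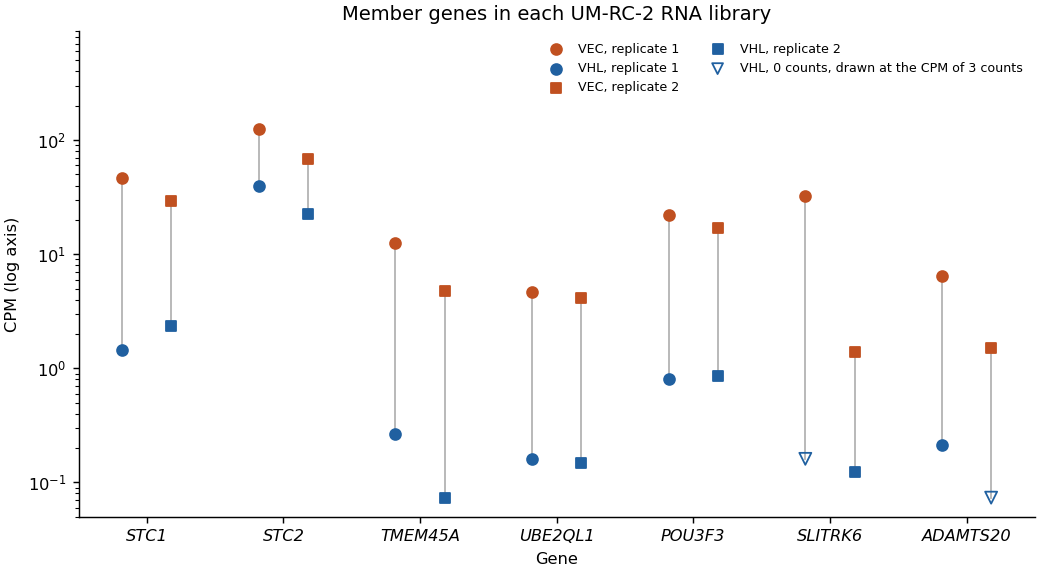
Levels of the 7 genes in each UM-RC-2 RNA library, in TMM-scaled CPM on a log axis, with circles for replicate 1, squares for replicate 2, orange for VEC and blue for VHL. Open triangles mark the VHL libraries with 0 counts, drawn at the CPM that 3 counts would give, and in every gene both blue symbols lie below both orange ones.

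STC1 and STC2 are the stanniocalcin pair. STC1 had 1074 counts (46.4 CPM) in VEC and 27 counts (1.45 CPM) in VHL of replicate 1. In replicate 2 it had 1340 counts (29.4 CPM) in VEC and 95 counts (2.33 CPM) in VHL. Both VEC libraries were high and both VHL libraries low, with no overlap. In such bulk libraries, fewer cells with a transcript and less transcript per cell cannot be told apart. The fold was 32.1 (interval 21.9 to 48.9) in the replicate 1 pair and 12.6 (10.3 to 15.7) in the replicate 2 pair. These counting intervals do not meet, so the sizes in the pairs of libraries differed by more than counting error. The VEC level of STC1 was lower in replicate 2 than in replicate 1, at 0.633 times, while its VHL level was higher, at 1.61 times.

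STC2 had 2899 counts (125 CPM) in VEC and 735 counts (39.4 CPM) in VHL of replicate 1. It had 3121 counts (68.4 CPM) in VEC and 928 counts (22.7 CPM) in VHL of replicate 2. The VHL libraries kept far more counts than those of STC1, and the groups did not overlap. The fold was 3.18 (2.93 to 3.45) and 3.01 (2.80 to 3.24), so that the pairs agree within counting error. With group as the only term, the log2 change was -1.64 ± 0.66 (SE, n = 2 per group) and was not called (edgeR's quasi-likelihood F test, adjusted p = 0.999991). With the replicate number as a block, STC2 fell by 1.63 ± 0.22 on the log2 scale and was called (edgeR adjusted p = 3.61e-11, lower in both pairs). That fit had 1 residual degree of freedom, so its p-values rest largely on a spread estimated across genes. The fit with group alone called 0 of 24417 genes (22 had an unadjusted p under 0.05, and DESeq2 called 6), and the fit with the block called 756 (3.1%). All further calls given here are from the fit with the block, and none of them held in edgeR without it.

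TMEM45A and UBE2QL1 act inside the cell or in its membranes. TMEM45A had 289 counts (12.5 CPM) in VEC and 5 counts (0.268 CPM) in VHL of replicate 1. It had 216 counts (4.74 CPM) in VEC and 3 counts (0.0734 CPM) in VHL of replicate 2. Its transcripts were nearly absent from both VHL libraries. The fold was 46.6 (19.7 to 145) in the replicate 1 pair and 64.5 (21.8 to 315) in the replicate 2 pair, with wide intervals because few reads were left.

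UBE2QL1 encodes a protein related to the E2 enzymes that conjugate ubiquitin, and the gene is known from a chromosome translocation found in a family with renal tumours. It had 109 counts (4.71 CPM) in VEC and 3 counts (0.161 CPM) in VHL of replicate 1. It had 190 counts (4.17 CPM) in VEC and 6 counts (0.147 CPM) in VHL of replicate 2. Its levels in replicate 2 were close to those in replicate 1, at 0.885 times in VEC and 0.913 times in VHL. The folds of 29.3 (9.76 to 144) and 28.4 (12.8 to 78.3) overlapped over most of their intervals.

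POU3F3 and SLITRK6 are best known from the nervous system. POU3F3, also called BRN1, encodes a POU-domain transcription factor of developing brain that is also needed to form the loop of Henle in the kidney. It had 507 counts (21.9 CPM) in VEC and 15 counts (0.804 CPM) in VHL of replicate 1. It had 773 counts (16.9 CPM) in VEC and 35 counts (0.857 CPM) in VHL of replicate 2. The VHL levels were alike in the replicates and the groups far apart. The fold was 27.2 (16.4 to 49.0) and 19.8 (14.1 to 28.6). LINC01159, a noncoding gene that overlaps POU3F3 in RefSeq, had 11 and 4 counts in VEC and 0 in both VHL libraries, and reads of the overlapping genes cannot be told apart without knowing whether counting was stranded.

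SLITRK6 encodes a leucine-rich repeat membrane protein of neurons and inner ear that promotes neurite and synapse formation. In replicate 1 it had 755 counts (32.6 CPM) in VEC and 0 counts in VHL. A count of 0 allows up to 3 counts there, or 0.161 CPM, and SLITRK6 was then at least 203-fold lower. In replicate 2 it had 64 counts (1.40 CPM) in VEC and 5 counts (0.122 CPM) in VHL, a fold of 11.5 (4.66 to 36.5). VEC replicate 1 stood apart from the other libraries, and the VEC level in replicate 2 was 0.043 times that in replicate 1. That library set the size of the SLITRK6 difference, which in the replicate 2 pair alone was near that of STC1.

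ADAMTS20 encodes a secreted metalloprotease of the matrix, known to cut the proteoglycan versican and to be needed for pigment cells in the mouse. It had 150 counts (6.48 CPM) in VEC and 4 counts (0.214 CPM) in VHL of replicate 1. In replicate 2 it had 69 counts (1.51 CPM) in VEC and 0 counts in VHL, which allows up to 0.0734 CPM. The fold was 30.2 (11.6 to 112) in the replicate 1 pair and at least 20.6 in the replicate 2 pair. The VHL libraries were low in both pairs, and the VEC level in replicate 2 was 0.233 times that in replicate 1.

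**Figure D2:**
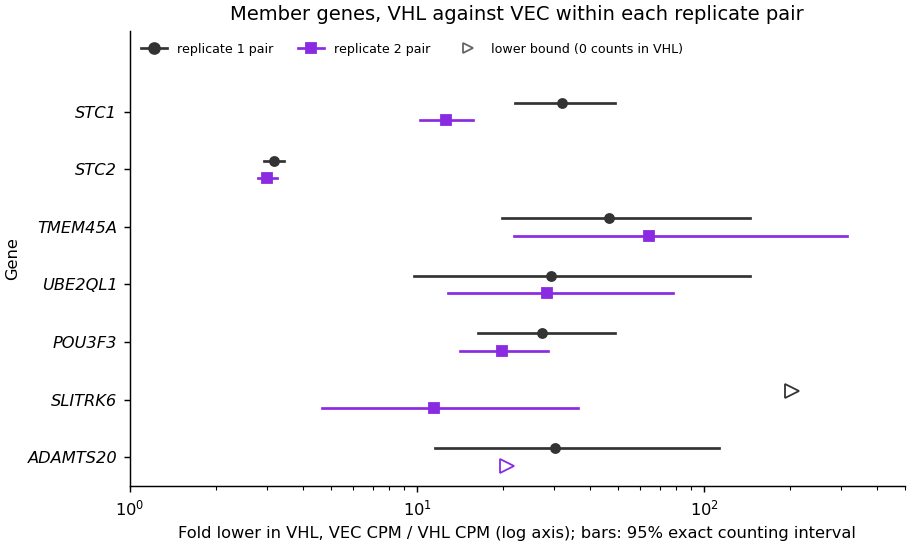
VEC CPM over VHL CPM for each gene within the replicate 1 pair (black circles) and the replicate 2 pair (purple squares), on a log axis, with 95% exact counting intervals as bars. Open triangles are lower bounds for pairs with 0 counts in VHL; STC2 sits near 3 in both pairs, and the STC1 intervals of the pairs do not meet.

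By size in the replicate 1 pair, SLITRK6 came first, then TMEM45A, STC1, ADAMTS20, UBE2QL1, POU3F3 and STC2. From TMEM45A to POU3F3 the counting intervals all overlapped, so these 5 have no resolved order. In the replicate 2 pair the order by fold was TMEM45A, UBE2QL1, POU3F3, STC1, SLITRK6 and STC2, with ADAMTS20 known only to be at least 20.6-fold lower. The STC1 interval there lay below that of TMEM45A and below the bound for ADAMTS20. All other pairs of intervals among TMEM45A, UBE2QL1, POU3F3, STC1 and SLITRK6 overlapped, so that most of this order is not resolved. STC2 had the smallest fold in both pairs, and its interval lay below those of the other members in both.

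The agreement of the pairs differed among the members. On the log2 scale with a prior count of 2, which pulls changes of low counts toward 0, the replicate 1 change minus the replicate 2 change was -0.08 for STC2, -0.08 for UBE2QL1 and -0.10 for TMEM45A. It was -0.45 for POU3F3, -1.32 for STC1 and -6.05 for SLITRK6. For TMEM45A its sign depended on the prior count. The TMEM45A changes in the replicate 1 and 2 pairs were -5.46 and -5.74 with a prior count of 0.5. With a prior count of 5 they were -4.90 and -4.41. For ADAMTS20 no such difference is measured, because VHL had 0 counts in replicate 2 and the change there ran from -6.62 to -3.42 as the prior count went from 0.5 to 5. Across 11417 protein-coding genes with at least 20 counts in 1 library of each pair, the median size of this difference was 0.31 (quartiles 0.15 and 0.53). STC1 and SLITRK6 differed between the pairs by more than the upper quartile of these genes, and STC2, UBE2QL1, TMEM45A and POU3F3 by less. The same held against the 178 of these genes that fell by at least 1 in both pairs (median 0.30, quartiles 0.11 and 0.56). The members other than STC2 were chosen for large falls in both pairs, so the agreement of their pairs is partly set by that choice. The SLITRK6 value also rests on a library with 0 counts, where the fold is known only as a lower bound. What sets the pairs apart cannot be told apart from the RNA type in the labels, since both change together.

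The VEC levels also moved with the replicate number. The ratio of replicate 2 to replicate 1 in VEC had a median of 0.685 (quartiles 0.435 and 1.40) over 12796 tested genes with at least 20 counts in both VEC libraries. UBE2QL1 (0.885), POU3F3 (0.774), STC1 (0.633) and STC2 (0.546) lay inside these quartiles. TMEM45A (0.379), ADAMTS20 (0.233) and SLITRK6 (0.043) lay below the lower one. The VEC counts behind these ratios entered the choice of the members other than STC2. The ratios are therefore a description only, with 1 library on each side.

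**Figure D3:**
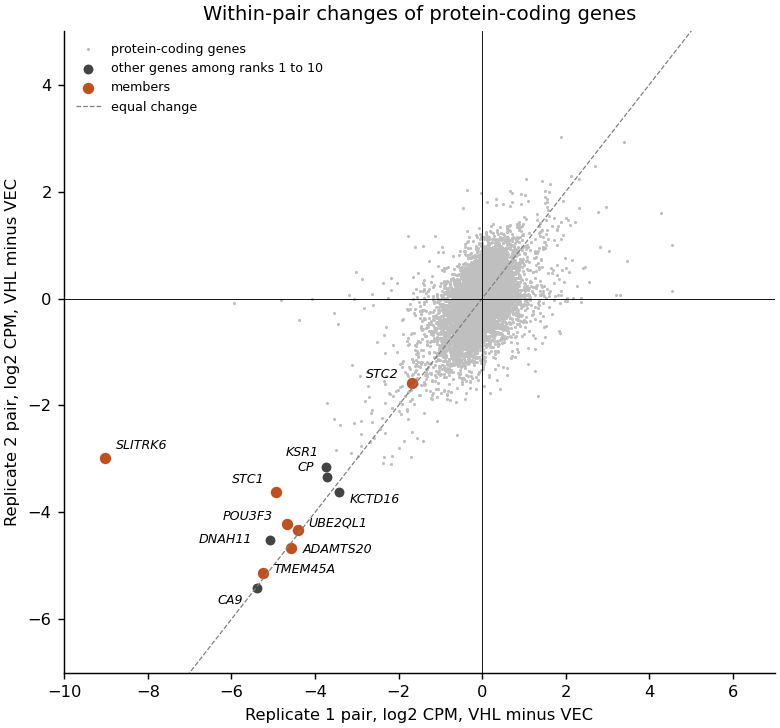
Log2 CPM change, VHL minus VEC, of 11417 protein-coding genes in the replicate 1 pair (horizontal) and the replicate 2 pair (vertical), both with a prior count of 2; grey points are genes, orange points members, black points the non-members among ranks 1 to 10, and the dashed line marks equal change. All members lie at the lower left, SLITRK6 far to the left of the line (-9.03 and -2.99) and STC2 near the edge of the cloud (-1.67 and -1.59).

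The same 11417 genes were ranked by the smaller of their changes in the pairs, as a description of where the members stood. TMEM45A ranked 2, ADAMTS20 ranked 3, UBE2QL1 ranked 5, POU3F3 ranked 6 and STC1 ranked 7. SLITRK6 ranked 11 because of its replicate 2 value, and STC2 ranked 69. The rank of ADAMTS20 depends on the prior count, since with a prior count of 5 its smaller change was -3.42, less than that of STC1 at -3.57. With that prior count the smaller change of UBE2QL1, -3.84, was also less than that of POU3F3, -4.08. The other genes among ranks 1 to 10 were CA9, DNAH11, KCTD16, CP and KSR1. CA9, a carbonic anhydrase and a classical HIF target, had 1562 and 29 counts in replicate 1 and 2820 and 57 in replicate 2. DNAH11, an axonemal dynein heavy chain gene, had 4330 and 103 counts in replicate 1 and 1895 and 72 in replicate 2. KCTD16, which encodes an auxiliary subunit of GABA-B receptors, had 349 and 25 counts in replicate 1 and 374 and 25 in replicate 2. CP, the ferroxidase ceruloplasmin, and KSR1, a scaffold of the MAP kinase pathway, had changes of -3.72 and -3.33, and of -3.75 and -3.16.

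Likeness was measured as the distance between genes over the log2 changes of the 2 pairs, so it rests on 4 libraries. The nearest non-member of POU3F3, ADAMTS20, UBE2QL1 and STC1 was DNAH11 each time, at distances of 0.50, 0.52, 0.67 and 0.90 log2 units. TMEM45A lay nearest to CA9, at 0.30. STC2 lay nearest to HK2, a hexokinase of glycolysis, at 0.025, with changes of -1.69 and -1.60 for HK2. SLITRK6 had no close neighbour, its nearest being DNAH11 at 4.25. The distances of ADAMTS20 and SLITRK6 rest on the prior count, as each had 0 counts in 1 VHL library. Those of TMEM45A and UBE2QL1 also depend on it, because few VHL reads were left. As the prior count went from 0.5 to 5, the replicate 2 change ran from -5.74 to -4.41 for TMEM45A. For UBE2QL1 it ran from -4.69 to -3.84.

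The closest relatives of the members were looked at next, with 17 paralogues in the list. Of these, 10 were tested and 0 were called in the edgeR fit with the block, where 2.35% of all genes were called lower and 0.749% higher (3 paralogues had an unadjusted p under 0.05, and DESeq2 with the block called 1, UBE2Q1). Their median log2 changes were 0.03 in both pairs, against 0.00 and -0.01 over all tested genes. UBE2Q1, a ubiquitin-conjugating enzyme, changed by -0.37 and -0.52 (edgeR adjusted p = 0.35). SLITRK5, which acts with SLITRK6 in the same family of synaptic proteins, had 110 and 159 counts in replicate 1 and 397 and 565 in replicate 2, with changes of 0.83 and 0.66 (edgeR adjusted p = 0.196). SLITRK4 had 41 and 36 counts in replicate 1 and 60875 and 123279 in replicate 2 (edgeR adjusted p = 0.202), a gap between replicates that no member showed. ADAMTS9, the versican protease most like ADAMTS20, changed by 0.16 and 0.05 (edgeR adjusted p = 0.96). The other class III POU genes were scarce, with POU3F2 at no more than 24 counts, POU3F1 at no more than 11 and POU3F4 at 0 in every library.

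The genes next to the members on the chromosomes were taken from RefSeq, which gave 14 neighbours among the counted protein-coding genes. Of 10 tested, 0 were called by edgeR with the block (1 had an unadjusted p under 0.05, and DESeq2 with the block called BOD1). Of the 10, 8 were higher in VHL in both pairs and 1 was lower in both, against 22.8% and 25% of all tested genes. STC1 and STC2 sit beside NKX2-6 and NKX2-5, themselves paralogues, which had at most 1 count in any library. SLITRK6 sits between SLITRK1, at most 1 count, and SLITRK5. ADAMTS20 lies between PRICKLE1, with changes of 0.16 and 0.33, and PUS7L, with 0.05 and 0.55.

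The hypoxia-response list held 40 genes chosen for a link to HIF or low oxygen, not all of them known HIF targets. Of 38 tested, 30 fell, 1 rose and 7 were not called, where 2.35% of all tested genes were called lower and 0.749% higher. The list's median changes were -1.57 and -1.17 in the pairs, against 0.00 and -0.01 over all tested genes. PFKFB4, a regulator of glycolysis, changed by -2.91 and -2.76 (edgeR adjusted p = 1.45e-31). PDK1, a pyruvate dehydrogenase kinase, changed by -2.71 and -1.85 (edgeR adjusted p = 3.43e-16). CA9, with -5.38 and -5.41 (edgeR adjusted p = 2.04e-76), was the only tested gene of this list with changes as large as those of STC1, TMEM45A, UBE2QL1 and POU3F3. The change of STC2 lay close to the list's median in the replicate 1 pair (-1.67) and was a larger fall in the replicate 2 pair (-1.59).

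Genes of calcium and phosphate handling, the first known field of the stanniocalcins, gave 1 call among 13 tested, against 3.1% of all tested genes. ATP2B4, a calcium pump of the plasma membrane, rose by 1.40 ± 0.23 on the log2 scale (edgeR adjusted p = 2.16e-07), from 403 to 815 counts and from 751 to 1865. The phosphate transporter SLC20A1 changed by 0.74 and 0.41 (edgeR adjusted p = 0.133). The list's median changes were 0.14 and 0.30. Stanniocalcins are also known to block PAPP-A, a protease that frees insulin-like growth factors (IGF) from their binding proteins. PAPPA, which encodes it, had 1451 and 1536 counts in replicate 1 and 2162 and 2348 in replicate 2 (edgeR adjusted p = 0.584). IGFBP5, an IGF binding protein, fell from 14 to 1 and from 51 to 6 counts (edgeR adjusted p = 0.0215, with no adjusted p from DESeq2). It was the 1 call among 6 tested, against 3.1% of all tested genes.

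The substrate and matrix list of ADAMTS20 gave 3 calls among 8 tested, against 3.1% of all tested genes. VCAN, which encodes versican, had changes of -0.04 and 0.00 (edgeR adjusted p = 0.997). CD44, a receptor for hyaluronan, rose by 1.00 ± 0.24 on the log2 scale (edgeR adjusted p = 0.00267). HAS3, a hyaluronan synthase, rose by 1.21 ± 0.37 (edgeR adjusted p = 0.0359, with no adjusted p from DESeq2). LRP1, an endocytic receptor, fell by 1.51 ± 0.30 (edgeR adjusted p = 9.94e-05).

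The lists of SLITRK partners, neural genes and loop of Henle genes gave 1 call each, where 3.1% of all tested genes were called. Among the 3 tested partners of SLITRK proteins, PTPRD, a receptor phosphatase of the synapse, rose by 0.80 ± 0.22 on the log2 scale (edgeR adjusted p = 0.0152) and the other 2 were not called. Among 10 tested neural genes 1 was called, MAP2, a microtubule protein of dendrites, which rose by 0.80 ± 0.22 (edgeR adjusted p = 0.0144). The neural list's median changes were 0.16 and 0.85, and SNAP25 and GAP43 were at 0 in every library. Some neural genes had reads almost only in replicate 2. NEUROD1 had 3 and 0 counts in replicate 1 and 4280 and 7808 in replicate 2 (edgeR adjusted p = 0.0545). SOX11 had 1 and 0, then 2017 and 3273. DCX had 0 counts in both libraries of replicate 1 and 697 in VHL of replicate 2, with a change of -0.01 in the replicate 2 pair. Both medians include these genes, whose replicate 1 changes rest on few or no reads. Among 9 tested genes of the loop of Henle and distal tubule, CLDN10, a tight junction claudin, fell from 663 to 149 and from 491 to 168 counts (edgeR adjusted p = 3.67e-06), and the other 8 were not called. UMOD and KCNJ1 were among the 3 of 14 listed genes at 0 in all 4 libraries. Other genes of the list had reads mostly in replicate 2. CLDN16 had 1 and 1 counts in replicate 1 and 763 and 753 in replicate 2. CLDN19 had 1 and 0, then 453 and 349, and SLC12A3 had 8 and 0, then 406 and 304. Of the 9 tested renal epithelial markers, CA9 and CUBN were called, CUBN with changes of -2.35 and -1.53 (edgeR adjusted p = 1.99e-13), and the summed level of the list was 4595 and 2681 CPM in VEC and VHL of replicate 1 and 2298 and 1389 CPM in replicate 2. Their part in the result was not tested.

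**Figure D4:**
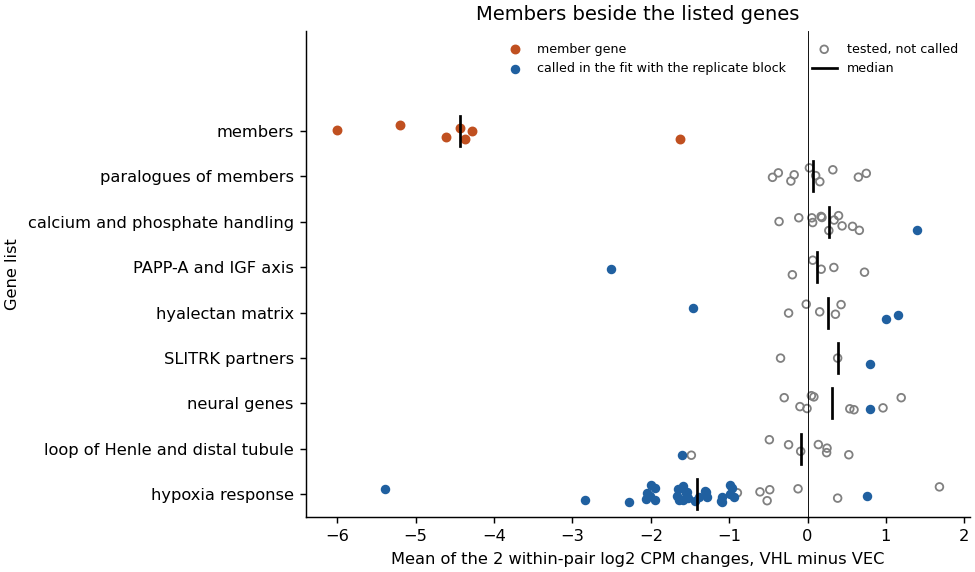
Mean of the 2 within-pair log2 CPM changes, VHL minus VEC, for the 7 members (orange) and for the tested genes of 8 lists, filled blue where called in the fit with the replicate block and open where not; vertical bars are medians. Apart from CA9 in the hypoxia-response list, no listed gene has a change as large as that of any member except STC2, and the hypoxia-response list has the lowest median of the 8 lists.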

How the data were processed

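The deposited values are raw counts per gene symbol from hg19 alignments, per the file headers. The submitters' processing notes name featureCounts and HOMER. The aligner, the annotation, strandedness and the handling of multi-mapped reads are not given in the sources used here. Groups and replicate numbers were taken from sample titles. Genes were filtered with filterByExpr, scaled by TMM and tested in R 4.3.3 with edgeR 4.0.16 (quasi-likelihood F test, two-sided, Benjamini-Hochberg over 24417 genes, threshold 0.05), with group as the only term and, as the set alternative, with the replicate number as a block. DESeq2 1.42.0 was another alternative. The numbers pair the libraries because the labels give total RNA for replicate 1 and polyA RNA for replicate 2, and deviations from group means correlated at 0.983 between same-numbered libraries (21673 genes). SE were the absolute log2 change over the square root of F. Fold intervals are exact binomial (Clopper-Pearson) at 95%, and a count of 0 was set to 3 for bounds. PCR duplicates are not marked in counts, so intervals and floors cover counting error only. The code of the fits was checked on simulated counts whose spread was set near that of the fit with the block. That check does not measure how well the calls hold in these libraries. Gene classes and names came from RefSeq (42740 of 43682 symbols matched). The members and lists were chosen with earlier results of these data known. From each list the up to 3 genes with the smallest p in the fit with the block were named, with others by their counts, and the non-members among ranks 1 to 10, the nearest genes and the neighbours. VCAN, UMOD, KCNJ1, CLDN16, CLDN19, SNAP25, GAP43, SOX11, DCX and LINC01159 fall outside this rule and were chosen after their values were seen. So do CD3E, PECAM1, VWF and CDH5, which were named because they were at 0. The H3K27ac tables, whose regions have no positions, were not used here.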

Additional observations from a re-analysis of the deposited data

How the results depend on the processing

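The number of called genes depended on the replicate block. It was 0 with group alone, and also with size factors from DESeq2 (27 genes had an unadjusted p under 0.05), no filter (22), a stricter filter (20) and when 1 library was left out (0 to 0, with 1 to 12 at an unadjusted p under 0.05). DESeq2's group-only Wald test called 6. With the replicate block edgeR called 756, with the stricter filter 755, with DESeq2 size factors 999 and with protein-coding genes alone 998, and DESeq2's Wald test with the replicate block called 1203. Of the 756, 734 were also called with the stricter filter and 733 with DESeq2 size factors. Another 507 of the 756 were called with protein-coding genes alone, where only 13908 genes were tested, and 405 in DESeq2 with the block. STC2 was not called in any fit without the block, where its log2 change was between -2.09 and -1.14 when 1 library was left out. It was called in each fit with the replicate block, at -1.63, at -1.66 with DESeq2 size factors, at -1.64 under the stricter filter, at -1.65 with protein-coding genes alone and at -1.66 in DESeq2. All 7 members were lower in VHL in both pairs under each scaling and prior count tried, and 56 of 56 recomputed pair changes kept their sign. For the 6 members chosen on this contrast the sign follows from the choice. In size, 36 of the 56 moved by less than the standard deviation of the gene's 2 pair changes. The size for SLITRK6 in replicate 1 ran from -11.0 to -7.72 on the log2 scale as the prior count went from 0.5 to 5, and that for ADAMTS20 in replicate 2 from -6.62 to -3.42, because VHL had 0 counts in both cases. Among the gene lists, DESeq2's Wald test with the replicate block moved the calls from 0 to 1 for the paralogues, from 3 to 2 for the matrix list, from 1 to 0 for the PAPP-A and IGF list and from 2 to 4 for the renal epithelial markers, and left the other counts as they were. Low counts in VHL limit the precision of every member except STC2.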
